A study of Mus musculus with 19 samples.

Results

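The genes described here are the histone genes of retinal microglia, 58 protein-coding genes of the 27299 genes in the deposited table. The group was chosen with earlier results of these data known, and within it the genes were picked by name. The rule took every protein-coding gene whose symbol starts with an old or new histone cluster name or with the variant names H1f or H3f3. Of these, 54 are replication-dependent cluster genes, with 6 genes for the linker histone H1, 13 for H2A, 13 for H2B, 10 for H3 and 12 for H4. The other 4 are variant genes that lie outside the clusters, *H3f3a*, *H3f3b*, *H1f0* and *H1f10*. No gene of the table carried a symbol starting with H2af, and the variants once called so, such as *H2az1* and *H2ax*, are outside the rule and are given only as neighbours.

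The study compared microglia sorted from 6 samples of unlasered retina (control) with microglia from 6 samples of lasered retina (CNV d3), collected 3 days after 6 burns per eye had been set to start choroidal neovascularization. The labels give C57BL/6J mice of 8 weeks and cells positive for CD45, CD11b and CX3CR1 and negative for Ly6C and Ly6G, while the methods name Cx3cr1 GFP/+ mice, in which 1 copy of the gene is replaced by GFP, and cells low for CD45. The sources used here do not say whether the 6 samples of a group came from separate mice, so the p-values measure the spread between these samples. In such bulk samples fewer cells of a type and less RNA per cell cannot be told apart.

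Chromatin is built from nucleosomes, in which DNA is wrapped around H2A, H2B, H3 and H4, while H1 binds the linker DNA between them. The replication-dependent genes supply most histones when DNA is copied in S phase, and their mRNAs are unusual because they end in a 3′ stem-loop in place of a poly(A) tail. The stem-loop is bound by SLBP, the stem-loop binding protein, which guides processing, translation and decay of these mRNAs. The variant genes have introns or ordinary poly(A) tails and are used throughout the cell cycle and in cells that no longer divide. Microglia of the healthy adult retina divide rarely.

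These features bear on the measurement, because the libraries were primed on poly(A) by an oligo-dT primer before template switching. The stem-loop was found behind the stop codon in 39 of the 54 cluster gene models and in none of the 4 variants, by a search of the transcript strand for a stem of 6 base pairs, G-T pairs allowed, around a loop of 4 bases. The search also required the 5′ arm to open with GG and to go on with pyrimidines to a T at the loop. The 3′ arm had to run from A through purines to CC, so that stem-loops with other letters were not counted. In 12 cluster genes the model ends at or just past the stop codon, so that it holds no sequence in which a stem-loop could be found. The letters are shown for the 5 genes that carry the main results below, with the loop in capitals, 5′ to 3′ on the gene's strand and with GRCm38 positions.
H1f2, chr13:23739512-23739527, plus strand: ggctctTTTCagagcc
H1f4, chr13:23621782-23621797, minus strand: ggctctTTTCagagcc
H4c4, chr13:23581950-23581965, plus strand: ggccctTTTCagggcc
H2bc3, chr13:23747203-23747218, plus strand: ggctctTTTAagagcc
H2bc6, chr13:23585531-23585546, minus strand: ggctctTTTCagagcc
The form of *H1f2*, *H1f4* and *H2bc6* was the most common, in 20 of the 39 genes. The form of *H4c4* stood in 6 genes, as did that of *H2bc3*.

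Values are normalized counts, that is reads per gene divided by a size factor of the sample, and 1 read was worth between 0.739 and 1.99 normalized counts. Depth was between 10963178 and 22335233 reads in control, where replicate 6 was the shallowest sample, and between 23532260 and 29523018 reads in CNV d3. Log2 fold changes are CNV d3 over control on the log2(normalized counts + 1) scale, from limma over all 27299 genes with Benjamini-Hochberg adjustment. A gene is said to have risen or fallen when its adjusted p was under 0.05, and is called a differentially expressed gene (DEG) when its absolute log2 fold change was also above 1.5.

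Replication-dependent histone genes were higher in CNV d3 as a group. The summed level of the 54 cluster genes was between 1256 and 1615 normalized counts in control and between 2918 and 5059 in CNV d3, so that all CNV d3 samples were above all control samples. The mean sum was 1441 ± 154 in control and 4113 ± 808 in CNV d3 (SD, n = 6 each), a ratio of 2.86. The 4 variant genes together held 13672 ± 719 and 19927 ± 1877 (SD, n = 6 each), a ratio of 1.46. Most of this was *H3f3b*, with means of 10916 and 14891. The single ratios were 1.36 for *H3f3b*, 1.42 for *H3f3a*, 2.36 for *H1f0* and 2.87 for the scarce *H1f10*. In the cluster sum, 5 genes (*H1f2*, *H1f4*, *H2bc4*, *H2bc6* and *H4c4*) held 68.2% to 88.2% in control and 62.7% to 76.2% in CNV d3. The plot of summed counts shows these sums for every sample and each family.

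**Figure D1:**
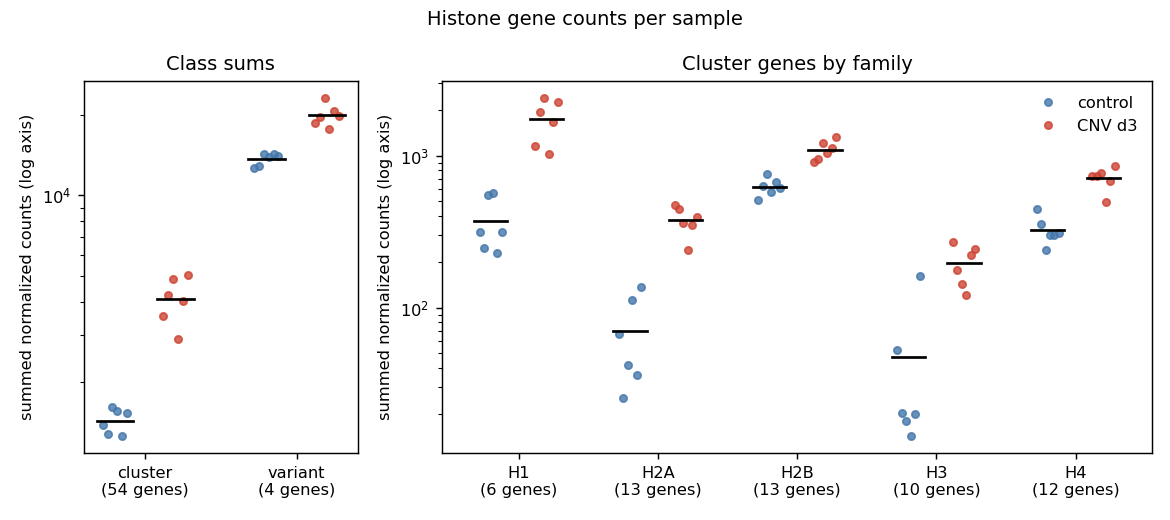
Summed normalized counts (log axis) per sample for both classes (left) and for the cluster genes by family (right), one point per sample with the group mean as a bar, control in blue and CNV d3 in red. The cluster sum lies between 1256 and 1615 in control and between 2918 and 5059 in CNV d3, and H3 is the family whose groups overlap.

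Of the 54 cluster genes, 20 were increased DEG (37.0%), where 3.91% of all genes tested were. In all, 25 cluster genes rose (46.3%), beside 8.29% of all genes, and 1 fell, *H2bc6*, beside 4.57% of all genes. No cluster gene was a decreased DEG in limma, edgeR or DESeq2, and at an unadjusted p under 0.05 none had a log2 fold change below -1.5 either, where 1.07% of all genes were decreased DEG in limma. The remaining 28 genes did not pass, and the fold change of all 28 was above 0. In 8 of these 28 no control sample had a read, so that no other direction was possible. The median log2 fold change was 1.83 over the 54 genes and 0.15 over all genes tested. In 17 cluster genes all CNV d3 values were above all control values (4.64% of all genes), and in none were all CNV d3 values below (2.83% of all genes). Of these 17, 8 had no control read. A fall was not possible in any of the 19 cluster genes without control reads.

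Many of these genes held few reads, and this limits the single calls. In 19 of the 54 cluster genes no control sample had a read, and 8 of these 19 were DEG. In 17 of those 19 the CNV d3 mean was below 5.96 normalized counts, worth 3 reads in the shallowest control sample. No fold is printed for these 17. Their log2 fold changes depend on the 1 added before the logarithm. They still enter the DEG calls, the plot of fold changes and the median of 1.83. Single CNV d3 samples of these 17 reached up to 8.81, in *H2ac7*. With the other 2 of the 19 at their lower bounds and the 17 left out, the median log2 fold change was 2.06. Of the 20 DEG, 10 had a mean under 10 normalized counts in CNV d3, and edgeR called 12 of the 20. edgeR and DESeq2 together called 8 of the 20, namely *H1f1*, *H1f2*, *H1f3*, *H1f4*, *H1f5*, *H2ac8*, *H2bc3* and *H3c11*. DESeq2 gave no adjusted p for 19 of the 54 cluster genes, so that these could not be called by it. Among them were the DEG *H2ac7*, *Hist1h2an*, *Hist1h2bp*, *H2bc12*, *H4c1* and *Hist1h4n*. Leaving out 1 sample at a time kept 13 of the 20 as DEG in all 12 fits.

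**Figure D2:**
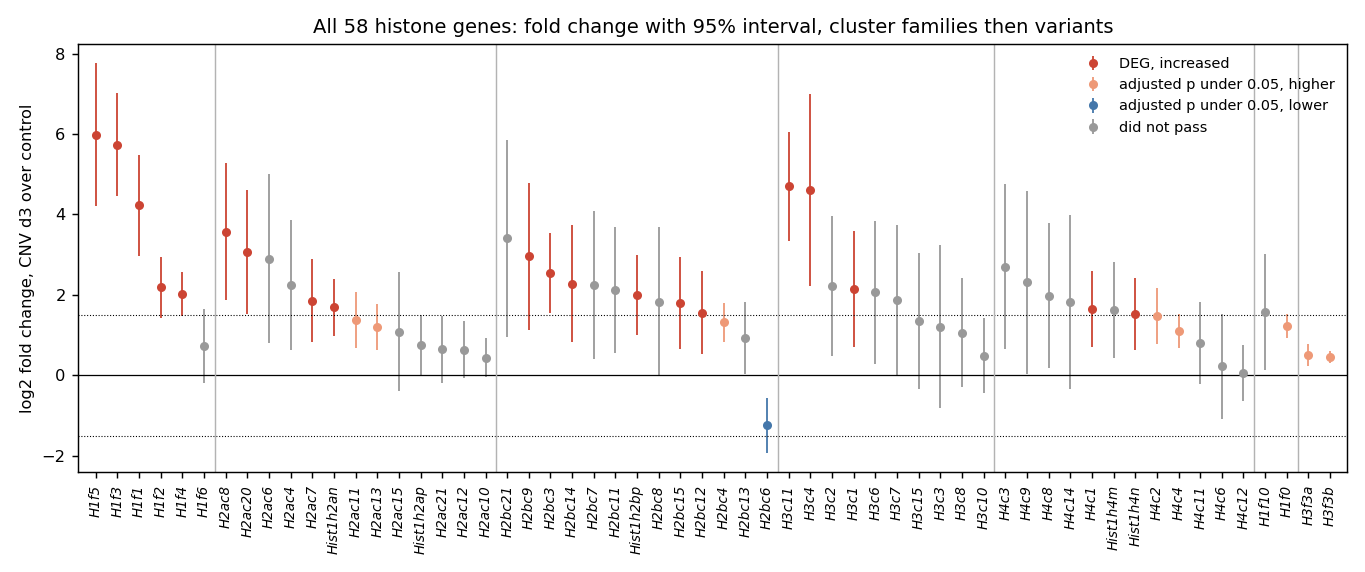
Log2 fold change of CNV d3 over control with its 95% interval from limma for all 58 genes, cluster families from left to right and then the variants, with dotted lines at the DEG threshold of 1.5 in either direction. Red points mark the 20 DEG and the single blue point is *H2bc6* at -1.25.

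The linker histone H1 genes were the family with the largest share of DEG, 5 of 6. H1 proteins close the nucleosome and compact chromatin, and the genes *H1f1* to *H1f5* encode the H1 subtypes of somatic cells. Summed counts of the H1 family were between 229 and 564 in control and between 1023 and 2400 in CNV d3. Their share of all cluster counts was 25.2% ± 7.9 in control and 41.4% ± 6.4 in CNV d3 (SD, n = 6 each).

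*H1f2* (ENSMUSG00000036181, chr13:23738808-23740367, plus strand) was the most abundant cluster gene of CNV d3. Its lowest, median and highest values were 138, 172 and 473 normalized counts in control and 556, 1141 and 1559 in CNV d3. The groups did not overlap, and within control replicates 3 and 4 stood above the other 4 samples at 386 and 473. The gene rose with a log2 fold change of 2.18 (SE 0.35, adjusted p = 0.000841, exact permutation p = 0.00216, the smallest that the labelings of these samples allow). *H1f4* (ENSMUSG00000051627, chr13:23620629-23622558, minus strand) went from 70.3, 112 and 168 in control to 365, 476 and 598 in CNV d3. It rose by 2.02 on the log2 scale (SE 0.25, adjusted p = 0.000135) and its 496 bases shared with an exon of *H2bc6* are described below.

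The remaining somatic H1 genes were at or near 0 in control. *H1f5* had reads in 1 control sample only, replicate 1 with 15.03 normalized counts, and held between 50.2 and 189 in CNV d3 with a median of 104 (log2 fold change 5.99, SE 0.83, adjusted p = 0.000277). *H1f3* had no read in any control sample and between 35.7 and 65.8 normalized counts in CNV d3. Set against 3 reads in the shallowest control sample, or 5.96 normalized counts, the mean of *H1f3* in CNV d3 was at least 8.95-fold higher. *H1f1* also had no control read, held between 6.06 and 33.1 in CNV d3, and was at least 3.37-fold higher. Both were DEG (adjusted p = 3.65e-05 and 0.00029). The 50-base windows of *H1f1* and *H1f5* matched no other gene model, so their reads could not be split with another histone gene. *H1f6*, the testis H1 gene, had reads in 2 samples, both CNV d3, with at most 5.37 normalized counts.

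**Figure D3:**
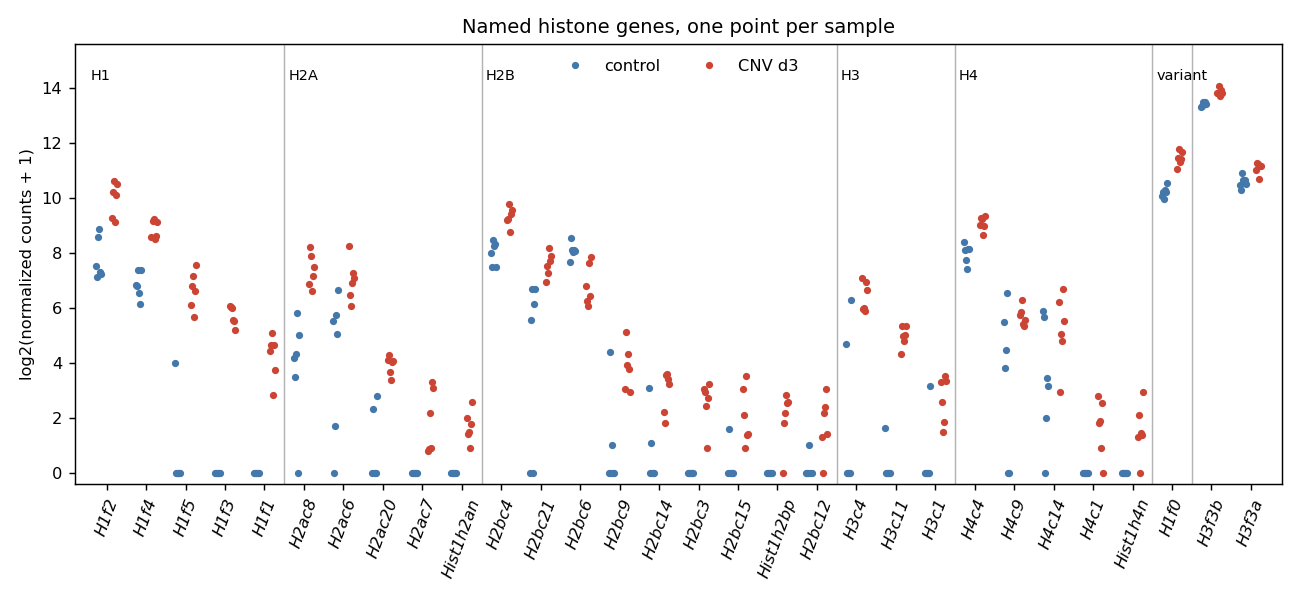
Values of the 30 named histone genes on the log2(normalized counts + 1) scale, one point per sample, control in blue and CNV d3 in red, grouped by family and with the variants on the right. Points at 0 are samples without a read, as in the controls of *H1f3* and *H1f1*, while *H2bc6* is the gene whose red points lie mostly below the blue.

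Of the 13 cluster genes for H2A, which pairs with H2B at the outer face of the nucleosome, 4 were DEG and 6 rose. *H2ac8* (ENSMUSG00000069272, chr13:23570517-23571220, minus strand) led the family with 0, 18.2 and 55.8 normalized counts (lowest, median and highest) in control and 97.8, 161 and 299 in CNV d3. Its groups did not overlap and its log2 fold change was 3.57 (SE 0.79, adjusted p = 0.00751). *H2ac6* reached 99.3 in control and held between 67.1 and 302 in CNV d3, so that the groups overlapped, and its log2 fold change of 2.90 did not pass (SE 0.99, adjusted p = 0.0685). *H2ac20*, on chromosome 3, was seen in 2 control samples, at most at 5.96, and was between 9.52 and 18.4 in CNV d3 (log2 fold change 3.07, adjusted p = 0.0105). edgeR gave *H2ac20* an adjusted p of 0.111. The remaining DEG, *H2ac7* and *Hist1h2an*, had no control reads and means of 3.72 and 2.44 in CNV d3, below what 3 reads are worth in the shallowest control.

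Of the 13 cluster genes for H2B, 6 were DEG, 7 rose and 1 fell, so this was the family with both directions. *H2bc4* (ENSMUSG00000018102, chr13:23684199-23692908, plus strand) was the most abundant H2B gene of CNV d3, with 179, 280.0 and 352 normalized counts in control and 432, 641 and 886 in CNV d3. The groups did not overlap, and *H2bc4* rose by 1.32 on the log2 scale (SE 0.23, adjusted p = 0.00128), below the fold needed for a DEG. *H2bc21* was between 0 and 101 in control and between 121 and 292 in CNV d3. All CNV d3 samples were above all control samples (exact permutation p = 0.00216), yet 2 control samples without a read left a wide error and the adjusted p was 0.0671 (log2 fold change 3.41, SE 1.15). *H2bc3* had no control reads and a mean of 5.56 in CNV d3, also below 3 reads of the shallowest control, and was called by all 3 tools (limma adjusted p = 0.00196, edgeR 0.0148, DESeq2 0.00539).

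The other H2B DEG rested on few reads. *H2bc9* held 6.65 to 34.3 normalized counts in CNV d3 and 0 in 4 of 6 control samples, but control replicate 2 had 20.2 (log2 fold change 2.96, adjusted p = 0.0329, edgeR adjusted p = 0.298). *H2bc14*, *H2bc15*, *Hist1h2bp* and *H2bc12* had CNV d3 means of 7.69, 4.21, 3.66 and 3.04 with adjusted p between 0.0101 and 0.0469. Of these 4 genes edgeR called *Hist1h2bp* alone. The call of *H2bc12* was lost in 10 of the 12 fits that leave out 1 sample, that of *H2bc9* in 9, that of *H2bc14* in 8 and that of *H2bc15* in 7.

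*H2bc6* (ENSMUSG00000047246, chr13:23583670-23621124, minus strand) was the single histone gene that fell. It had the highest mean of the cluster genes in control, 277, with 205, 272 and 375 normalized counts as lowest, median and highest value, and by the median *H2bc4* and *H4c4* were above it. In CNV d3 it held 67.1, 97.9 and 230.1 in CNV d3. CNV d3 replicates 4 and 6, at 199 and 230.1, stood near the lowest control sample at 205, so that the groups overlapped, and the other 4 CNV d3 samples were at 111 or below. The log2 fold change was -1.25 (SE 0.32, adjusted p = 0.0174, exact permutation p = 0.00433), and edgeR gave -1.10 with an adjusted p of 0.0486. Its share of all cluster counts went from 19.5% ± 5.3 (SD, n = 6) to 3.3% ± 2.1 (SD, n = 6). Its gene model spans 37455 bases with 3 transcripts, of which 1861 exonic bases lie behind the stem-loop, and 496 exonic bases overlap *H1f4*. Reads that fall in exons of more than 1 gene are left out under the default of the counting tool, and the part of this overlap in the fall was not tested. With size factors centred on microglia markers the adjusted p no longer passed (log2 fold change -0.75). This scaling moved the median log2 fold change of genes with a mean of at least 10 upward by 0.49.

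The H3 genes were scarce in control, and 3 of 10 were DEG. H3 carries most of the tail modifications that mark active and silent chromatin. *H3c11* (ENSMUSG00000101972, chr13:21782960-21783370, minus strand) had reads in 1 control sample at 2.15 normalized counts and was between 19.2 and 40.1 in all 6 CNV d3 samples (log2 fold change 4.70, SE 0.63, adjusted p = 0.000222). Of its 50-base windows 87.6% also match another gene model, so its count is uncertain. *H3c4* was at 0 in 4 control samples, but at 24.7 in replicate 1 and at 77.5 in replicate 6, and was between 58.9 and 137 in CNV d3. It was a DEG in limma (log2 fold change 4.6, SE 1.12, adjusted p = 0.0128) and not in edgeR (adjusted p = 0.179) or DESeq2 (adjusted p = 0.154). *H3c1* was seen in control replicate 6 alone at 7.94 and had a mean of 6.3 in CNV d3 (adjusted p = 0.0492), and its call was lost in 9 of the 12 fits that leave out 1 sample. Control replicate 6 held 161 of summed H3 counts, where the other controls held 14.2 to 52.6, so that the groups overlapped in this family alone.

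Of the 12 cluster genes for H4, the most conserved histone, 2 were DEG and 4 rose. *H4c4* (ENSMUSG00000061482, chr13:23581598-23582735, plus strand) held most of the family's counts, with 171, 277 and 335 in control and 402, 564 and 654 in CNV d3. The groups did not overlap and *H4c4* rose by 1.10 on the log2 scale (SE 0.19, adjusted p = 0.00166), below the fold of a DEG. *H4c9* was between 0 and 93.4 in control and between 39.2 and 77.0 in CNV d3 (adjusted p = 0.188), and *H4c14* was between 0 and 59.0 and between 6.69 and 102 (adjusted p = 0.293). In both genes the groups overlapped. The DEG were *H4c1* and *Hist1h4n*, each without control reads, with 1 CNV d3 sample at 0 and with means of 2.80 and 2.47 in CNV d3.

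The variant genes *H3f3b*, *H3f3a* and *H1f0* were abundant in both groups, and *H1f10* was scarce. None of the 4 was a DEG in limma, edgeR or DESeq2, and 3 rose, while *H1f10* was the 1 gene with an unadjusted p under 0.05 and a log2 fold change above 1.5. *H3f3b* (ENSMUSG00000016559, chr11:116021912-116027962, minus strand), which encodes the replacement histone H3.3, was the most abundant histone gene of both groups. It held 10159, 11046 and 11436 normalized counts in control and 13520, 14356 and 17153 in CNV d3, without overlap, and rose by 0.44 on the log2 scale (SE 0.07, adjusted p = 0.0007). *H3f3a*, which encodes the same H3.3 protein, was between 1262 and 1919 in control and between 1648 and 2476 in CNV d3, with overlap, and rose by 0.50 (SE 0.13, adjusted p = 0.0156). Per kilobase of exon, *H3f3b* counts were 8.39 ± 0.89 times those of *H3f3a* in control and 8.08 ± 0.96 times in CNV d3 (SD, n = 6 each), which differed by less than the spread between samples.

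*H1f0* (ENSMUSG00000096210, chr15:79028450-79030504, plus strand) is the linker variant known from cells that have stopped dividing. It rose as well, from 985, 1197 and 1507 normalized counts in control to 2117, 2779 and 3540 in CNV d3, without overlap (log2 fold change 1.23, SE 0.14, adjusted p = 5.72e-05). Counts per kilobase of *H1f0* were between 1.43 and 4.23 times those of the 6 cluster H1 genes together in control and between 1.06 and 1.95 times in CNV d3, so that the ranges of the ratio overlapped. For H3.3 over the 10 cluster H3 genes per kilobase the ratio had a median of 160.2 in control and 22.3 in CNV d3, also with overlap, since control replicate 6 stood at 22.7. These ratios compare mRNAs with and without a usual poly(A) tail and are no ratios of protein. *H1f10*, the scarcest variant, had at most 7.09 normalized counts in control and a mean of 5.87 in CNV d3 (log2 fold change 1.57, SE 0.68, adjusted p = 0.158).

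Variant genes outside the naming rule are given for comparison. *H2ax*, whose product is phosphorylated at DNA breaks and whose gene makes both a stem-loop and a poly(A) mRNA, was a DEG, from 177 ± 48.3 (SD, n = 6) to 893 ± 267 (SD, n = 6) with a log2 fold change of 2.32 (adjusted p = 3.97e-05). *H2az1*, which encodes H2A.Z, was a DEG as well, from 1452 ± 207 to 4759 ± 1172 (SD, n = 6 each; log2 fold change 1.68, adjusted p = 1.85e-05). *H2az2*, *H2aj* and *Macroh2a1* rose below the DEG fold, by 0.72 to 1.27, and *Macroh2a2*, with means of 6.84 and 7.60, did not pass (log2 fold change 0.27, adjusted p = 0.876). *Cenpa*, the H3 variant of centromeres, was at 54.2 ± 45.6 in control and 1310 ± 481 in CNV d3 (SD, n = 6 each; log2 fold change 4.78, adjusted p = 8.51e-06).

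More histone genes were detected in CNV d3, as were more genes of the whole table. Between 16 and 22 of the 54 cluster genes had at least 1 read in a control sample and between 45 and 51 had at least 1 read in a CNV d3 sample. With every sample thinned at random to the 10963178 reads of the shallowest sample, the numbers were 14 to 22 in control and 39 to 47 in CNV d3, so the groups did not overlap at equal depth. With at least 3 reads asked for, they were 12 to 21 and 35 to 44. Over all 27299 genes, between 15076 and 17224 had at least 1 read in a control sample and between 18276 and 19116 in a CNV d3 sample. After thinning these were 14448 to 16235 and 16745 to 17642, again without overlap.

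Cluster genes whose annotated 3′ end reaches far held most of the counts in both groups, with exceptions. Counts were not divided by length here, so that longer models can collect more reads. In 20 of the 54 cluster genes the model extends 200 bases or more from the stop codon, a limit chosen after the values were seen. The search found no stem-loop in *H2bc4* and *H2bc21* of these 20. These 20 genes held between 93.2% and 99.7% of all cluster counts in control and between 90.8% and 93.4% in CNV d3. All 12 cluster genes with a mean of at least 10 in control were among them. Yet 3 of the 20 had no control read, among them *H1f3*, whose 3′ end of 4934 bases is the longest. The 34 shorter models summed to between 5.07 and 105 normalized counts in control and between 206 and 466 in CNV d3, without overlap, and 14 of the 34 were DEG, beside 6 of the 20 long ones. *H1f5* and *H3c11* are annotated to the stop codon only and still reached means of 109.5 and 31.3 in CNV d3. Whether the reads come from poly(A) forms that run past the stem-loop was not tested, since the table holds 1 value per gene.

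**Figure D4:**
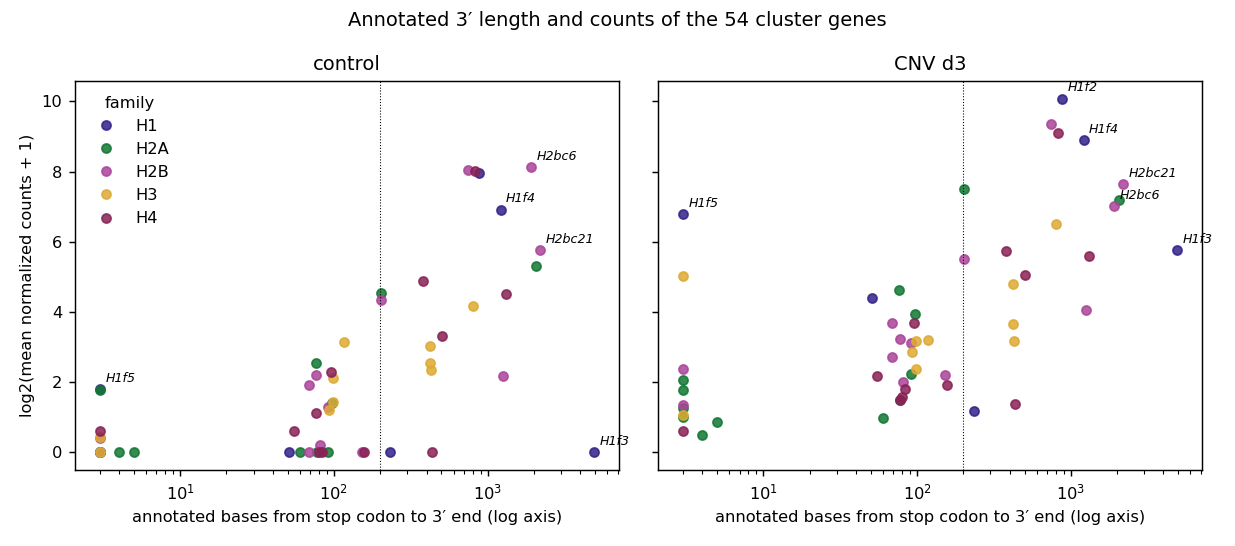
Mean level of the 54 cluster genes on the log2(mean normalized counts + 1) scale against the annotated bases from the stop codon to the 3′ end (log axis), control on the left and CNV d3 on the right, coloured by family. The dotted line stands at 200 bases, and the 12 genes with a control mean of at least 10 all lie on or to the right of it, while *H1f5* is the highest of the short models in CNV d3.

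Near-identical coding sequences are a second limit on single genes. A read of 50 bases from the median cluster gene had a match in another or an overlapping gene model for 49.6% of its possible positions, and in 26 of the 54 genes the share was above 50%. Reads that match more than 1 gene are left out by default counting, which would leave such genes undercounted, and 7 of the 20 DEG are among the 26. In contrast, *H1f2* shared 8.54%, *H4c4* 10.2% and *H2bc21* none of its windows.

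The cluster genes stand in 3 groups on chromosome 13, with 15, 5 and 29 of the 54 genes, and in 1 group of 5 genes on chromosome 3. The third group of chromosome 13 (chr13:23531050-23764406), which includes *H1f2*, *H1f4*, *H2bc4*, *H2bc6* and *H4c4*, held 1320 ± 145 of the summed counts in control and 3598 ± 767 in CNV d3 (SD, n = 6 each), and 11 of its 29 genes were DEG. The first group, at chr13:21715763-21833507, went from 8.12 ± 11.3 to 175 ± 63.6 (SD, n = 6 each), and 7 of its 15 genes were DEG. *H1f5* held most of the CNV d3 counts of this group.

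Members often lie head to head, and 10 pairs of cluster genes were found whose start sites are 176 to 660 bases apart on opposite strands, 9 of them an H2A and an H2B gene. Both genes were DEG in 1 pair, *Hist1h2an* and *Hist1h2bp*, and 1 of the 2 was a DEG in 6 pairs. The closest pair, *H2ac8* and *H2bc8*, shares 1 intergenic promoter of 176 bases between the start sites. *H2ac8* was a DEG, while *H2bc8* (a partner named after its values were seen) was between 0 and 41.7 in control and between 24.2 and 81.7 in CNV d3 (log2 fold change 1.83, SE 0.87, adjusted p = 0.204). Whether their fold changes differ was not tested. The promoter window of *H2bc8* from RefSeq (GRCm38.p6, chr13:23571150-23571449, plus strand) is shown because it covers the whole gap to *H2ac8*, with octamer, CCAAT and TATA motifs of either strand in capitals.
H2bc8: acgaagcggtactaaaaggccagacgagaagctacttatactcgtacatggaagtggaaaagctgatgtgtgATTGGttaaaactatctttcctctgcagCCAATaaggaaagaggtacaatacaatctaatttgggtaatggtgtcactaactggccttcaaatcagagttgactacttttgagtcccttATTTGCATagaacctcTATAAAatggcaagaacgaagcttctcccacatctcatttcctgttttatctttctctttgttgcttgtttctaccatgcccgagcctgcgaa

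Motifs were searched as exact letters on both strands in the RefSeq promoters, 250 bases before to 50 after the start site, which were found for 53 of the 58 genes. The octamer ATTTGCAT, which the factor Oct-1 is known to bind, stood in 9 of 49 cluster promoters (18.4%) and in 1.74% of all 32851 promoters. All 9 were of H2A (5 of 13) or H2B genes (4 of 11), but they hold 7 separate copies, since *H2ac8* and *H2bc8* share 1 copy in overlapping windows, as do *H2ac12* and *H2bc12*. CCAAT stood in 83.7% of cluster promoters and 37.4% of all, with all 38 promoters of H1, H2A, H2B and H3 genes holding it and 3 of 11 of H4 genes. TATAAA stood in 63.3% and 13.6%. Of the 9 genes with the octamer 5 were DEG, beside 20 of all 54 cluster genes, and whether these shares differ was not tested.

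Of the 18 genes that make and handle histone mRNAs none was a DEG in limma, edgeR or DESeq2, and at an unadjusted p under 0.05 none had a log2 fold change beyond 1.5 in either direction. In all 4 rose, where 8.29% of all genes did, with a median log2 fold change of 0.11 over the list, beside 0.15 over all genes. *Slbp* was between 1115 and 1768 in control and between 1758 and 2445 in CNV d3 and rose by 0.51 (SE 0.13, adjusted p = 0.0159), and *Sympk*, *Srrt* and *Ncbp2*, of the cleavage and cap-binding machinery, rose by 0.99, 0.71 and 0.61. *Npat*, which activates histone genes at the start of S phase, was at 667 ± 292 in control and 748 ± 189 in CNV d3 (SD, n = 6 each; log2 fold change 0.24, adjusted p = 0.602).

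The histone chaperones, which carry new histones to DNA, were counted together with *Cenpa* as 24 genes. Of these, 3 were DEG, 11 rose and 1 fell, with a median of 0.83. Over all genes 3.91% were increased DEG, 8.29% rose and 4.57% fell, with a median of 0.15. The DEG were *Asf1b* (149 ± 87.7 to 823 ± 244, SD, n = 6 each; log2 fold change 2.66, adjusted p = 0.000517), *Chaf1a*, the large subunit of the chromatin assembly factor CAF-1 (log2 fold change 4.05, adjusted p = 0.0113), and *Cenpa*, which is on this list with its chaperone *Hjurp*. *Chaf1b* had a log2 fold change of 3.98 and did not pass (SE 1.29, adjusted p = 0.057), although all CNV d3 samples, at 330.2 or above, exceeded all control samples, at 250.0 or below. *Hat1*, which acetylates new H4, rose by 0.81 (adjusted p = 0.00864), whereas *Nasp* at 1.03 (adjusted p = 0.19) and *Hjurp* at 0.65 (adjusted p = 0.0653) did not pass. *Ubn2*, of the complex that deposits H3.3, fell by 1.24 on the log2 scale (adjusted p = 0.00128). With size factors centred on microglia markers, a scaling that shifts fold changes upward, 9 chaperones were DEG.

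Of the 29 S phase genes, 21 were DEG and 26 rose, with a median of 2.36. Over all genes 3.91% were increased DEG and 8.29% rose, with a median of 0.15. *Mki67*, a marker of dividing cells that was placed on this list, was at 0, 18.2 and 229 in control and at 1219, 2552 and 3232 in CNV d3 (log2 fold change 7.37, SE 1.13, adjusted p = 0.000557). *Mcm6*, of the replicative helicase, was the DEG of the list with the highest mean in CNV d3, 4631 ± 1354 (SD, n = 6), from 818 ± 514 (SD, n = 6). *Pcna*, the replication clamp, rose by 1.36 (adjusted p = 6.62e-05), below the fold of a DEG.

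**Figure D5:**
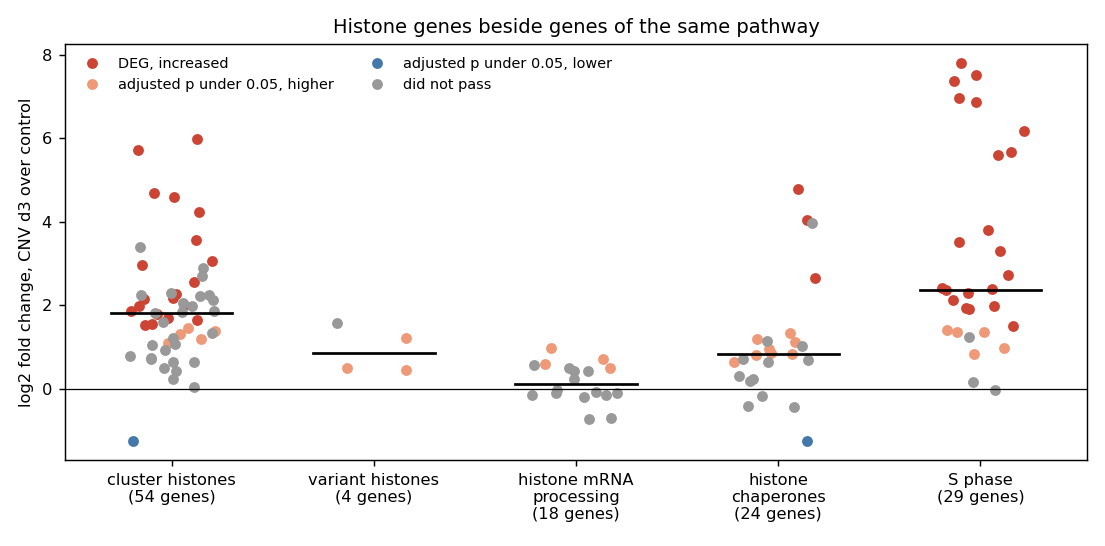
Log2 fold change of CNV d3 over control for the cluster and variant histone genes and for 3 lists of the same pathway, one point per gene with the list median as a bar. The medians are 1.83 for cluster histones, 0.86 for variants, 0.11 for mRNA processing, 0.83 for chaperones and 2.36 for S phase genes.

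The summed markers of monocytes and of microglia separated the groups, while the sums of the other marker lists overlapped. Of 8 monocyte markers 4 were DEG, and their summed level was between 221 and 1022 in control and between 1219 and 4438 in CNV d3, although Ly6C-positive cells were gated out, and *Ly6c2* and *Chil3* had no control read. Microglia markers had sums between 1374943 and 1544437 in control and between 780844 and 1157866 in CNV d3, and 7 of 12 fell. Over all genes 3.91% were increased DEG, 8.29% rose and 4.57% fell. None of 7 photoreceptor markers passed, with sums between 769 and 6966 in control and between 604 and 12898 in CNV d3. Of 6 Müller glia markers 2 were DEG and 1 fell, and their sums overlapped between 6846 and 9909 in control and between 8020 and 8978 in CNV d3. Of the 4 listed endothelial markers 1 rose and 1 fell, and none of the neutrophil and lymphocyte markers passed. The part of these cells in the histone results was not tested.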

How the data were processed

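RNA of sorted retinal microglia from 6 control and 6 CNV d3 samples was made into poly(A)-primed SMARTer libraries and sequenced in single reads of 50 bases. The authors aligned the reads with STAR 2.7.2b to GRCm38.p6, counted them per gene with featureCounts 1.6.4 and scaled them with DESeq2 1.22.2. The deposited signal is therefore a read count scaled by the size factor of each sample. All 19 listed samples entered 12 columns, since some samples were listed in 2 parts. These were all 6 control samples and, of CNV d3, replicate 4 alone. Being listed in parts thus went almost fully with the group, and an effect of it cannot be told apart from that of the laser. Deposited group means, fold changes and adjusted p-values of the authors were not used.

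The values are not raw counts, so, as planned for normalized values, limma 3.58.1 (R 4.3.3) was fitted with a mean-variance trend on log2(value + 1) over 27299 genes without a filter. For a DEG, the Benjamini-Hochberg adjusted p had to be under 0.05 and the log2 fold change beyond 1.5 in either direction. Every value was a whole multiple of 1 read (100% within 0.001), so reads were recovered for edgeR 4.0.16 and DESeq2 1.42.0, which called 839 and 908 increased DEG where limma called 1068. All 3 tools were tested on simulated data, with changes planted in 200 genes of higher counts only. The simulation thus does not cover the scarce cluster genes. Single genes were compared by two-sided exact permutation over all labelings of the 12 samples. The floor was 3 reads and covers counting error only, since reads carry no molecular identifiers, while the 95% intervals of fold changes are those of limma from the spread between samples.

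Gene models were taken from Gencode M21 on GRCm38, which matched all 58 genes by identifier, and promoters from RefSeq on GRCm38.p6. The members and gene lists were chosen with earlier results of these data known. Genes named by rule are variants with a mean of at least 10, cluster genes that were DEG or among the 10 highest of a group, 11 pathway genes and the S phase DEG of highest CNV d3 mean. Others are named outside this rule, among them *H1f6*, *H1f10* and *H2bc8*. So are *Sympk*, *Srrt*, *Ncbp2* and *Ubn2*, whose adjusted p had passed. Alternatives were other tools, pseudocounts, filters, scalings, depths, a replicate block and leaving out each sample.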

Additional observations from a re-analysis of the deposited data

Results flagged for a closer look

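In each group of 6 samples the highest and the lowest value were compared with their nearest neighbour. This was done for the 30 named histone genes and 7 summed levels, 74 groups in all. In 10 groups the gap to the next sample, as a share of the range, passed the 95% critical value of Dixon. That value is made for normally distributed data, while many control groups were mostly at 0. Where only 1 sample had reads, as in *H2bc15*, *H1f5*, *H3c11*, *H2bc12* and *H3c1*, the gap is the whole range and always passes. The 10 flags therefore cannot be set against a rate given by chance. Of these 10, 8 are genes with reads in at most 2 control samples. Control replicate 1 stood apart in *H2bc14* at 7.51 normalized counts, in *H1f5* at 15.03 and in *H3c11* at 2.15. Control replicate 2 stood apart in *H2bc9* at 20.2 and in *H2bc15* at 2.02, and control replicate 4 in *H2bc12* at 1.01. Control replicate 6, the shallowest sample, was highest in *H3c4* at 77.5, in *H3c1* at 7.94 and in the summed H3 genes at 161, where the median of the other controls was 20.1. In CNV d3, replicate 1 was highest in *H2ac6* at 302, with the next sample at 152.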

How the results depend on the processing

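No named gene changed its direction and no summed level turned under any alternative. The 20 increased DEG among cluster histone genes became 11 with DESeq2, which gave no adjusted p for 19 of the 54 genes. They became 9 with a pseudocount of 10. With at least 10 reads asked for in 6 samples they were 13, where 20 of the 54 genes were tested. They were 33 with size factors centred on microglia markers, and 13 with an absolute log2 fold change above 2. Leaving out 1 sample gave 15 to 19 for cluster genes and 0 to 1 for variants, the 1 being *H1f10* without control replicate 2. Without the fold threshold 1 cluster gene fell, 3 variants, 4 processing genes and 11 chaperones rose, and 1 chaperone fell. Of the 12 microglia markers 7 fell, so that centring on them in itself shifts fold changes upward. Size factors centred on microglia markers moved the median of genes with a mean of at least 10 by 0.49 on the log2 scale. They made 1 variant and 9 chaperones DEG, in place of 0 and 3, and gave log2 ratios of summed level of 2.00 for cluster genes (1.496 before), 1.05 for variants (0.54), 1.30 for H2B (0.80) and 1.64 for H4 (1.13). Without *H2bc6*, an alternative added after seeing the data, the cluster ratio was 1.76. The mean number of detected cluster genes per sample, 19.5 in control and 47.7 in CNV d3, was 42.5 in CNV d3 after thinning, and 15.8 and 39.2 with at least 3 reads. Over all genes, increased DEG went from 1068 to 600 with a pseudocount of 10, 1964 with microglia centring and 2264 without the fold threshold, and decreased DEG from 293 to 572 with DESeq2, 489 with voom, 153 with microglia centring, 75 among protein-coding genes only, 1247 without the fold threshold and 182 above 2. The samples share replicate numbers, and the labels do not say whether same-numbered samples were paired. Same-numbered samples correlated between -0.018 and 0.051 in their deviations from the group mean, and only replicate 3 was closest to its own number. These correlations cannot settle whether there was a pairing. With the replicate block limma called 16 cluster genes, and edgeR with the replicate block, an addition after seeing the data, called 8 cluster genes, with 654 increased and 163 decreased DEG over all genes. Apart from the upward shift set by the microglia centring, the cause of these moves was not tested.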
